A study of Mus musculus with 18 samples.

Results

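Wild-type cells of 2 mouse tumour lines, TC1 and MCA205, were set against each other as they grew in culture. The comparison took 6 of the 18 RNA-seq libraries of the study, 3 of TC1 wild-type cells and 3 of MCA205 wild-type cells, and every difference below is TC1 against MCA205. MCA205 is a fibrosarcoma line that was raised with methylcholanthrene. TC1 is commonly described as lung epithelium transformed with papillomavirus oncogenes and activated RAS, whereas the labels call both lines fibrosarcoma. The labels give both groups the genotype wild type, and they set against it cells called sgNAT10, after the RNA acetyltransferase gene Nat10. No label names a control guide, a treatment of the cultured cells, a passage or separate cultures, so a p-value here speaks only of library-to-library spread, part of which can be technical. The libraries of each line were deposited in a table of their own, so the line and the table cannot be told apart. Total estimated counts ran from 51661298 to 60980565 over the 6 libraries. The other libraries, 6 of sgNAT10 cells of the same lines and 6 of tumours, 3 wild type and 3 sgNAT10, that the labels call TC1 tumours and that were grown under the skin of mice, are used only to place a result.

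Tumour lines keep marks of the tissue and body region they came from. Hox genes lie in 4 clusters, and the combination of Hox genes that a fibroblast keeps active records its position along the body axis. Imprinted genes are expressed from 1 parental copy and are held by DNA methylation. Genes of the germ line are silent in most body cells and are often active in tumours. MHC class I molecules show peptides of the cell to T cells, and Xist RNA coats the inactive X chromosome of female cells.

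Several libraries carried transcripts that their label does not account for, and the results below are given with them and, where it matters, without them. Genes of each line were first defined, for the most part, on the sgNAT10 libraries, which do not enter the comparison. The 8 MCA205 genes had at least 10 FPKM (fragments scaled to transcript length and library size) in every sgNAT10 MCA205 library. They were under 0.1 FPKM in every sgNAT10 TC1 library, and 15 TC1 genes had the opposite pattern, with Mup and Defa genes left out. Each gene also had to average at least 5 FPKM in the wild-type libraries of its own line. Its level in the wild-type libraries of the other line and in the tumours was not used. In TC1 library 1 the 8 MCA205 genes stood at a median of 11.2% of their MCA205 level, against 0.0845% and 0.0125% in TC1 libraries 2 and 3. The single genes ran from 0% to 28.8% in TC1 library 1, so the median does not hold for every MCA205 gene. Rps21, abundant in MCA205 but not among the 8, had 0.971, 1.1 and 0.993 FPKM in the TC1 libraries. The 15 TC1 genes, which include the kidney gene Kap and the gut and liver genes Itln1 and Cyp3a11, stood at a median of 0%, 0.209% and 0% of their TC1 level in the 3 MCA205 libraries. Liver genes, 18 of them with albumin first, summed to 1567, 1783 and 928 FPKM in the TC1 libraries and to 2.98, 104.7 and 57.9 FPKM in the MCA205 libraries. Of these liver genes 13 were called higher in TC1. The 18 intestine genes summed to 808, 1110.0 and 349 FPKM in TC1 and to 10.9, 644 and 270.6 FPKM in MCA205. MCA205 library 1 had lung secretory transcripts (Scgb1a1 at 43, 0.0835 and 0 FPKM in the 3 MCA205 libraries), and MCA205 library 2 had skin and muscle transcripts (Krt14 at 0, 20.4 and 0 FPKM and Acta1 at 0.291, 24.1 and 1.08 FPKM). Neither line is labelled as liver or intestine. How these transcripts came into the libraries, and whether cells of these types were present, was not tested. If they were present, fewer cells of a type cannot be told apart from less RNA per cell. The 3 wild-type tumours labelled TC1 held the 8 MCA205 genes at medians of 95.1%, 95.7% and 87.4% of the MCA205 level, and the 15 TC1 genes at medians of 0%, 0.174% and 0.865% of the TC1 level, so on these genes they went with MCA205 cells and against their label.

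**Figure D1:**
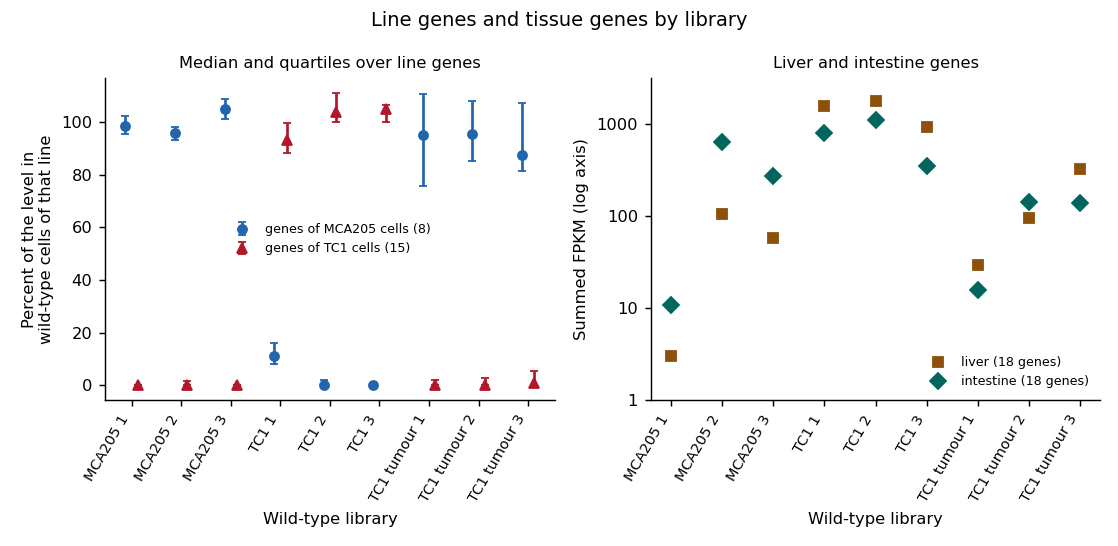
Left, median and quartiles over 8 genes of MCA205 cells (circles) and 15 genes of TC1 cells (triangles), each as percent of its level in wild-type cells of that line, in 9 wild-type libraries; right, summed FPKM of liver and intestine genes on a log axis. TC1 library 1 holds the 8 MCA205 genes at a median of 11.2%, the tumours hold them at medians of 87.4% to 95.7%, and the TC1 cell libraries hold the most liver transcript.

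The lines differed widely. Of 18829 genes tested, 4425 were called higher in TC1, which is 23.5%, and 4140 lower, which is 22%, at an adjusted p under 0.05 (edgeR quasi-likelihood test, Benjamini-Hochberg adjustment). These 2 shares are the background for every count of list members below. Differences of at least 4-fold were less even, with 1195 genes higher (6.35%) and 469 lower (2.49%). The 3 libraries of one line lay wholly above the 3 of the other for 11053 genes, 58.7% of those tested. Without TC1 library 1 the genes past 4-fold were 970 higher and 650 lower, and with MCA205 library 1 alone against TC1 libraries 2 and 3, a set of libraries chosen after the data were seen, they were 1495 and 386. Without MCA205 library 2 the genes at least 4-fold higher numbered 1808. Of the 1195 genes past 4-fold in TC1, 453 (37.9%) were at least 1.5 times as high in TC1 library 2, which had the most liver transcript, as in library 3, which had the least, against 22.4% of the 469 genes at least 4-fold lower and 14.5% of all genes tested. In the plot of mean levels many of the genes called higher in TC1 lie at low MCA205 levels.

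**Figure D2:**
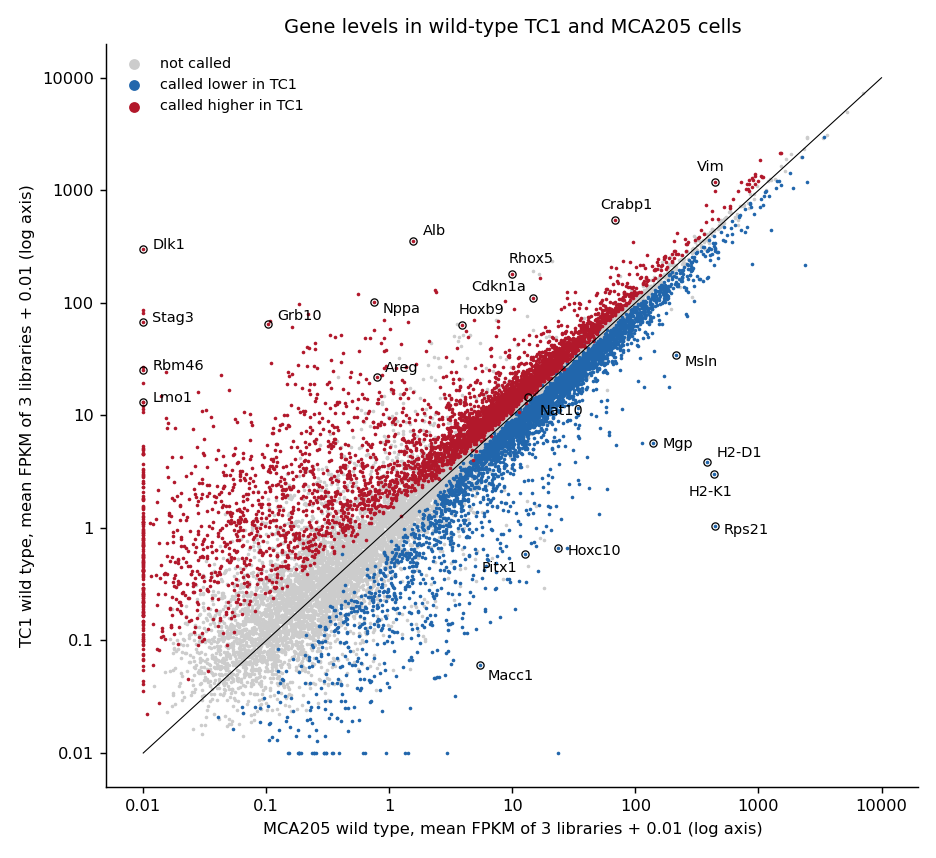
Mean FPKM of 3 libraries plus 0.01 in MCA205 (horizontal) and TC1 (vertical) wild-type cells, both on log axes, for the 18829 genes tested; red genes were called higher in TC1 and blue genes lower. Dlk1, Stag3, Rbm46 and Lmo1 sit at 0 counts in MCA205, and Rps21, H2-K1 and H2-D1 are the abundant genes that TC1 nearly lacks.

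Several of the largest differences in TC1 were in genes that MCA205 libraries did not contain at all. Dlk1, an imprinted gene for a membrane protein of the NOTCH ligand type, had 258, 327 and 318 FPKM in the TC1 libraries and 0 counts in all MCA205 libraries against 99402 in TC1. Set against a floor of 3 counts over the group, it was at least 32912-fold higher. Stag3, a cohesin subunit of meiotic cells, had 62.8, 67.5 and 71.9 FPKM in TC1 and 0 counts in MCA205, at least 18078-fold higher. Gpc2, a cell surface heparan sulphate proteoglycan whose gene lies head to head with Stag3, had 8.46, 12.6 and 10.8 FPKM against 0 counts, at least 1993-fold higher. Rbm46, an RNA-binding protein of germ cells, had 24, 24.7 and 27.4 FPKM in TC1 (at least 3149-fold higher), and Lmo1, a transcriptional cofactor, had 11.8, 14.2 and 13.3 FPKM (at least 797-fold higher). For each of these the TC1 libraries were close to one another, and the sgNAT10 libraries showed the same split: Dlk1 had 302, 340.1 and 362 FPKM in sgNAT10 TC1 cells and 0 in sgNAT10 MCA205 cells. The promoter windows of 4 of these genes are shown because the genes were on in one line and at 0 counts in the other. They run from 250 bases before to 50 after the start site nearest the annotated end of the gene, from RefSeq on GRCm38.p6, 5′ to 3′ on the strand of the gene, with every CG dinucleotide, the site of DNA methylation, in capitals. Dlk1 is at chr12:109452573-109452872 on the plus strand, Gpc2 at chr5:138279888-138280187 on the minus strand, Stag3 at chr5:138280259-138280558 on the plus strand and Rbm46 at chr3:82876434-82876733 on the minus strand.
Dlk1: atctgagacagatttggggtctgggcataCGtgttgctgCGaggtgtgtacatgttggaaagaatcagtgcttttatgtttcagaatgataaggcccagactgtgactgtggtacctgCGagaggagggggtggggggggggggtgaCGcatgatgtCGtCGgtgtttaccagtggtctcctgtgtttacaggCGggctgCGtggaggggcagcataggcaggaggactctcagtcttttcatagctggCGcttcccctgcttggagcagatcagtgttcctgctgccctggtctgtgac
Gpc2: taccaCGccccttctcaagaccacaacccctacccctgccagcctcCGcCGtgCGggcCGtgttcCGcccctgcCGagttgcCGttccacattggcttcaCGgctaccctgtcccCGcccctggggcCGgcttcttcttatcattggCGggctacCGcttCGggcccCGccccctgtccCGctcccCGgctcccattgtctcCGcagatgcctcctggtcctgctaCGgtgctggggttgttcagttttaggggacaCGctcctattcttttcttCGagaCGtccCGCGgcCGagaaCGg
Stag3: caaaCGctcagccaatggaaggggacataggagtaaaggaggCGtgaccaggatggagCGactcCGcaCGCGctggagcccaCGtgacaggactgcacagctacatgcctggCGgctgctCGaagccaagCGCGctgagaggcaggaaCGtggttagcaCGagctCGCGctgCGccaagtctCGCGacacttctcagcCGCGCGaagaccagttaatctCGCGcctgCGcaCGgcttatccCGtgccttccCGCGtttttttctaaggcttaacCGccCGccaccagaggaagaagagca
Rbm46: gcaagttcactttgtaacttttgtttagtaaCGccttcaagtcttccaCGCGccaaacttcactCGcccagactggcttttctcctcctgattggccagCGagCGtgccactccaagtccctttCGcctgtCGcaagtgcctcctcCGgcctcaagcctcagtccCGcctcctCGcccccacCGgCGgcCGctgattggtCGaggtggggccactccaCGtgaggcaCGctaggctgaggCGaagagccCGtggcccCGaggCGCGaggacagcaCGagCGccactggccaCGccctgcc
The Gpc2 and Stag3 windows are 71 bases apart and the start sites used for them 572 bases apart. The Stag3 start site used lies 269 bases from the annotated 5′ end of the gene, at chr5:138280240. The Stag3 window thus falls inside the annotated gene and does not cover that end. The Dlk1 window has 9 CG dinucleotides and an observed over expected CG ratio of 0.427, while the ratios of Gpc2, Stag3 and Rbm46 are 0.852, 1.06 and 0.84.

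Other genes were also on in TC1 wild-type libraries and off in MCA205. By a rule of at least 5 FPKM in every library of one line and under 0.1 FPKM in every library of the other, 24 genes were on in TC1 and off in MCA205, 21 of them with a gene name that is not a model or pseudogene. They included Rps6ka6, a kinase of the ERK pathway (13.5, 14.2 and 17 FPKM), Gchfr, the regulator of tetrahydrobiopterin synthesis (24.1, 20.7 and 24.2 FPKM), Tbx4, a T-box factor of lung and hindlimb mesenchyme (8.75, 8.52 and 8.46 FPKM), and Ddx25, a helicase of male germ cells (9.18, 8.96 and 10.2 FPKM). Tex13b, another testis gene, had 8.27, 13.4 and 14.4 FPKM in TC1 and 0 counts in MCA205. As the rule required, none of the 5 reached 0.1 FPKM in a wild-type MCA205 library. The split was not the same for all of them in the sgNAT10 libraries. Tex13b had 0.137, 0.12 and 0.0408 FPKM in sgNAT10 TC1 cells, and the difference of the 2 contrasts was -10.13 (adjusted p = 0.0053, edgeR). Gchfr had 2.63, 2.02 and 2.14 FPKM in sgNAT10 MCA205 cells. The same list held Mup17, Mup18 and Defa36, urinary protein and Paneth cell defensin genes that moved with the liver and intestine transcripts: Mup17 had 37.2, 208 and 14 FPKM, highest in TC1 library 2 and lowest in library 3. Mup20 had 0, 0.292 and 0 FPKM in MCA205 and 63.7, 99.1 and 42.5 FPKM in TC1 and stood in the same order over the TC1 libraries. The Mup and Defa genes are families of near-identical copies, so the value of a single member depends on how reads were assigned.

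By the same rule the genes on in MCA205 and off in TC1 were 2, Macc1 and the unnamed model Gm19810. Macc1, a regulator of MET expression, had 6.06, 5.26 and 5.03 FPKM in MCA205 and 0.0761, 0.0562 and 0.018 FPKM in TC1, a log2 difference of -6.47 ± 0.48 (SE, adjusted p = 0.0002, edgeR). When TC1 library 1 was not asked to be off, an alternative chosen after the data were seen, the rule gave 18 genes, 15 of them named. They were led by Hoxc10, Xist, Hoxc11, Hoxa11os and Hoxa11, and they included the transcription factor genes Pitx1, Six2, Lhx8 and Tbx18. Pitx1, a hindlimb factor, had 12.5, 13 and 12.5 FPKM in MCA205 and 1.59, 0.0929 and 0.0509 FPKM in TC1, and its call was lost in 4 of the 6 fits without 1 library. TC1 library 1 was above the other TC1 libraries for each of these 9 genes, which the looser rule fixed in advance. Hoxc10, Xist, Hoxc11, Hoxa11os and Hoxa11 are also among the 8 MCA205 genes, so the median of those 8 is not separate evidence. The windows of Hoxa11 (chr6:52245761-52246060, minus strand) and Tbx18 (chr9:87731211-87731510, minus strand) are shown, same source and capitals, for comparison with those of genes on in TC1.
Hoxa11: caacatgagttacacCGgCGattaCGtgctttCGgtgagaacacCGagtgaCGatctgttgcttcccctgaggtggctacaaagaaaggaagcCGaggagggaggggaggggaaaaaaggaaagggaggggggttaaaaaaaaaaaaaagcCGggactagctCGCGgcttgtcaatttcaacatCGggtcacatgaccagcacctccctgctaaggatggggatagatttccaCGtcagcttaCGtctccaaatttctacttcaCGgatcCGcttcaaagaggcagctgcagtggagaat
Tbx18: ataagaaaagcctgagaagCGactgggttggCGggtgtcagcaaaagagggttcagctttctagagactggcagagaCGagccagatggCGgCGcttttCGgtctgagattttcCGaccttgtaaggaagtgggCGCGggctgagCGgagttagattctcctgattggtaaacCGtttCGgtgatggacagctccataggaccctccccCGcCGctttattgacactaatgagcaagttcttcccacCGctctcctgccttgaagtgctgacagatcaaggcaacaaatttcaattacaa
Both had a CG ratio above that of the Dlk1 window, 0.787 for Hoxa11 and 0.755 for Tbx18.

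Of the abundant genes of MCA205, 3 were nearly lost from TC1, and one of them encodes a ribosomal protein. Rps21, a protein of the small ribosomal subunit, had 385, 457 and 483 FPKM in MCA205 and 0.971, 1.1 and 0.993 FPKM in TC1. The groups lay far apart, with a log2 difference of -8.64 ± 0.14 (SE, adjusted p = 6.4e-06, edgeR), and the sgNAT10 libraries gave -7.88. Its nearest protein-coding neighbours, chosen after their values were seen, moved far less: Lama5 on one side had 17.6 ± 0.146 FPKM in MCA205 and 29.8 ± 1.74 in TC1 (SD, n = 3 each), and Cables2 on the other had 14.7 ± 1.45 and 12.1 ± 0.0944 FPKM. The microRNA gene Mir3091 inside Rps21 was lower in TC1 (log2 -2.66), and so was Slco4a1 beyond Cables2 (-2.65). Line and table cannot be told apart, and whether the 2 tables treated Rps21 reads alike was not tested. H2-K1, a classical MHC class I heavy chain, had 428, 434 and 444 FPKM in MCA205 and 4.48, 2.47 and 1.98 FPKM in TC1, a log2 difference of -7.46 ± 0.14 (adjusted p = 1.1e-05, edgeR). H2-D1, the other classical heavy chain, had 377, 387 and 387 FPKM in MCA205 and 5.65, 2.96 and 2.8 FPKM in TC1 (-6.97 ± 0.19, adjusted p = 3.3e-05, edgeR). In both genes TC1 library 1 was the highest of the TC1 libraries. The Rps21 window (chr2:180257129-180257428, plus strand) and the H2-K1 window (chr17:34000298-34000597, minus strand) are shown because these 2 genes had the largest losses by fold among the abundant named genes. By FPKM other genes lost more, such as Ly6e, an interferon-induced surface protein, with 889.6, 859.9 and 895 FPKM in MCA205 and 272, 199 and 188 FPKM in TC1.
Rps21: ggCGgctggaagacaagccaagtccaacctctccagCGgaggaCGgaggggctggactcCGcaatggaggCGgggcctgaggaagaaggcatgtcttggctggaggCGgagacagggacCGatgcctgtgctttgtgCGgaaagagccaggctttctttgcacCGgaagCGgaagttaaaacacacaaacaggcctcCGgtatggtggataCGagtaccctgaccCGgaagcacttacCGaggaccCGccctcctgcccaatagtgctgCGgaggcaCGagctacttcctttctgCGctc
H2-K1: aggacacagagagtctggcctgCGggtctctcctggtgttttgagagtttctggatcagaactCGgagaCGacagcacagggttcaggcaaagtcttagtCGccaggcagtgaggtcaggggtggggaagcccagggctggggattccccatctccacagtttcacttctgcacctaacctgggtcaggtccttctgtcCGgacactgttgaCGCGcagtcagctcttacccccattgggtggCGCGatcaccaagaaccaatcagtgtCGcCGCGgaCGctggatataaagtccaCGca
The Rps21 window holds 18 CG dinucleotides, with a ratio of 0.657, and the H2-K1 window holds 14, with a ratio of 0.562. Other large losses were Igf2bp3, an RNA-binding protein of embryonic and tumour cells (12.3, 11.1 and 10.3 FPKM in MCA205 and 0.794, 0.0516 and 0.147 FPKM in TC1), and Amigo2, an adhesion molecule (52.6, 49.997 and 47.9 FPKM in MCA205 and 2.86, 1.07 and 0.0589 FPKM in TC1). Mgp, a matrix protein that blocks calcification, had 133, 142 and 143 FPKM in MCA205 and 7.16, 5.58 and 4.28 FPKM in TC1. In sgNAT10 MCA205 cells Mgp stood at 1.8, 0.24 and 5.36 FPKM, so that difference was not found there (log2 0.33).

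**Figure D3:**
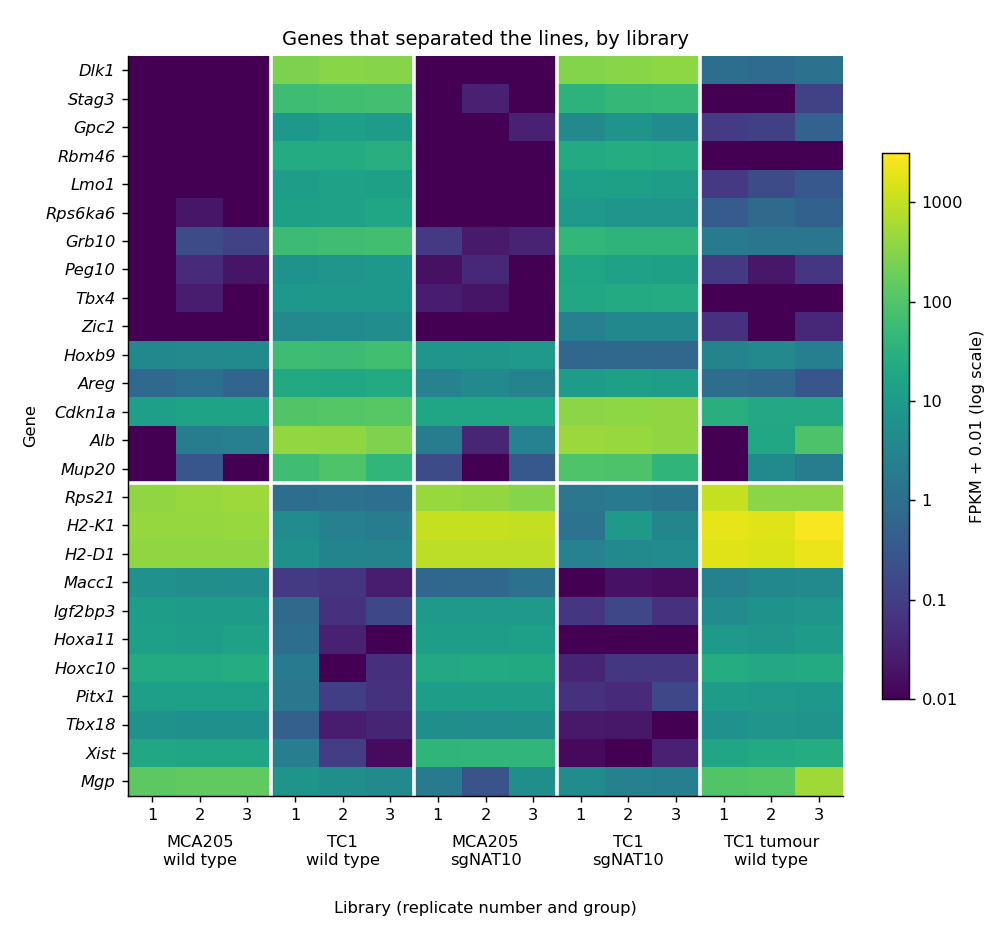
Level of 26 genes in each of 15 libraries as FPKM plus 0.01 on a log colour scale, with columns in 5 groups of 3. The upper 15 genes are high in TC1 cells with or without the guide except Hoxb9, which is low in sgNAT10 TC1 cells; the lower 11 are high in MCA205 cells except Mgp and Macc1, which are low in sgNAT10 MCA205 cells. Most rows of the tumours labelled TC1 look like MCA205 cells, as with Dlk1 at 0.838 to 1.13 FPKM and Rps21 at 346 to 1029 FPKM.

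The Hox genes separated the lines by cluster and by position. Of 39 Hox genes 30 were tested, 11 were called higher in TC1 and 13 lower, against 23.5% and 22% of all genes, and 19 of the 24 passed 4-fold. TC1 expressed the Hoxb cluster: Hoxb9 had 3.66, 3.92 and 4.13 FPKM in MCA205 and 62.3, 59.4 and 69 FPKM in TC1 (log2 4.0 ± 0.09, adjusted p = 1.4e-05, edgeR). Hoxb3 had 1.5, 1.38 and 1.22 FPKM in MCA205 and 22.5, 31.9 and 27.1 FPKM in TC1. Hoxb2 had 1.01, 1.17 and 1.01 FPKM in MCA205 and 15.2, 16.5 and 19.3 FPKM in TC1. Hoxb8 had 0.241, 0.741 and 0.295 FPKM in MCA205 and 12.2, 14.5 and 12.3 FPKM in TC1. Every Hoxb gene from Hoxb2 to Hoxb9 had its 3 TC1 libraries above its 3 MCA205 libraries, and Hoxb7 alone of these missed the test (adjusted p = 0.083, edgeR). MCA205 expressed the posterior genes of the Hoxa cluster and nearly all of the Hoxc cluster. Hoxa10 had 19.6, 21.5 and 21.3 FPKM in MCA205 and 2.47, 0.308 and 0.0926 FPKM in TC1. Hoxa9 had 18.1, 20.3 and 19.7 FPKM in MCA205 and 4.27, 2.39 and 2.18 FPKM in TC1. Hoxc10 had 22.8, 22.6 and 25.1 FPKM in MCA205 and 1.92, 0 and 0.0448 FPKM in TC1. Hoxc11 had 16.6, 16.3 and 17.3 FPKM in MCA205 and 2.42, 0 and 0 FPKM in TC1. In Hoxa10, Hoxc10 and Hoxc11 most of the TC1 signal was in library 1, whereas Hoxa9 kept 2.39 and 2.18 FPKM in libraries 2 and 3. Hoxc11 missed the test (adjusted p = 0.081, edgeR), and without TC1 library 1 the Hox genes called lower were 15. From the Hoxd cluster MCA205 had Hoxd8 (9.66, 8.34 and 9.07 FPKM), Hoxd9 (2.55, 2.71 and 3.65 FPKM) and Hoxd13 (2.36, 2.41 and 2.46 FPKM). In sgNAT10 MCA205 cells Hoxd13 had 0.184, 0 and 0.0676 FPKM. Between sgNAT10 lines 11 of 29 Hox genes were called higher and 18 lower. There the log2 difference was 2.28 for Hoxb2 and 3.45 for Hoxb3, but 0.86 for Hoxb8 and -1.85 for Hoxb7. The anterior Hoxa genes were closer, with overlap, gains and, in Hoxa6, a called loss (log2 -0.83). Hoxa4 had 2.24, 1.78 and 2.34 FPKM in MCA205 and 3.44, 2.52 and 2.34 FPKM in TC1. Hoxa7 had 7.08, 7.24 and 7.16 FPKM in MCA205 and 10.3, 12.1 and 11.7 FPKM in TC1. Several of these calls were lost when 1 library of either line was left out, with the direction unchanged and adjusted p up to 0.118. Hoxa6 (log2 -0.83) lost its call in each of the 6 fits, Hoxc9 (-4.41) in 5, Hoxa11 (-5.33) and Hoxc10 (-5.18) in 4, Hoxa5 (0.70) in 3 and Hoxc6 (-2.98) in 2. Hoxa10 (-4.28) and Hoxd13 (-5.96) lost theirs without MCA205 library 3, and Hoxa3 (0.65) without TC1 library 3. In the fits that lost the call, Hoxc10 stayed between -5.22 and -4.66.

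**Figure D4:**
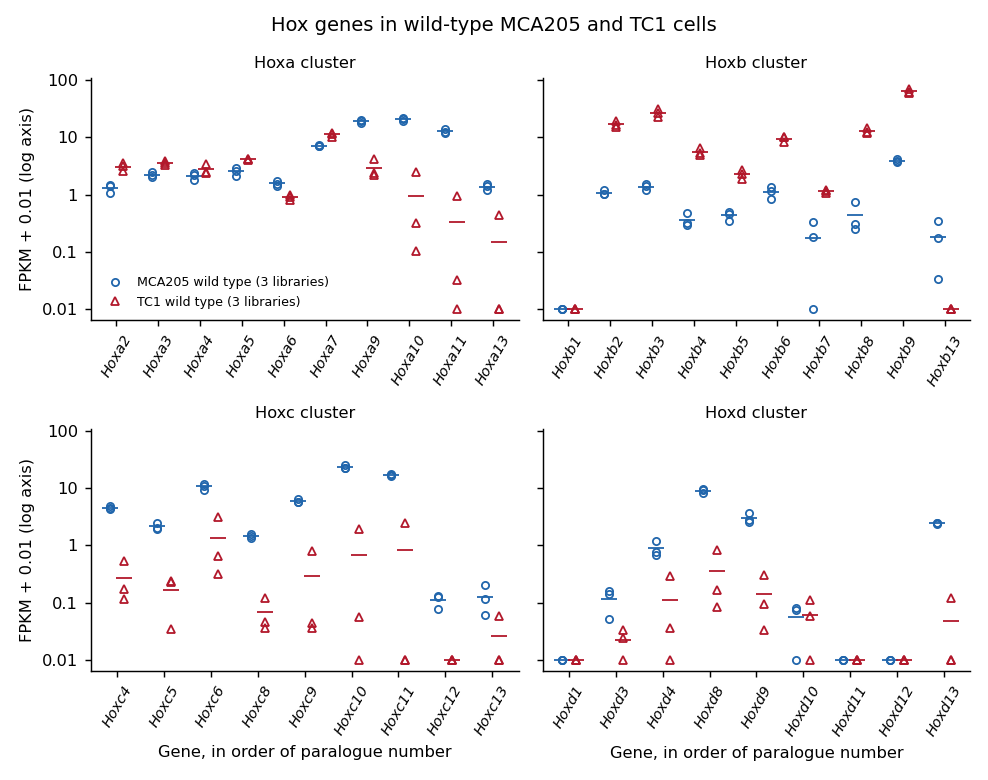
FPKM plus 0.01 on a log axis for genes of the 4 Hox clusters, with 3 libraries and their mean for MCA205 (circles) and TC1 (triangles). The lines are close at the start of the Hoxa cluster, TC1 is higher from Hoxb2 to Hoxb9, and MCA205 is higher at the end of the Hoxa cluster and along the Hoxc cluster.

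Of 61 other transcription factors of body region tested, 20 were called higher and 20 lower, against 23.5% and 22% of all genes. Past 4-fold there were 9 higher and 8 lower, against 6.35% and 2.49% of all genes. Zic1, a factor of dorsal neural tube and somite, had 4.09, 4.52 and 4.93 FPKM in TC1 and 0 counts in MCA205, at least 1333-fold higher. Meis1, a Hox cofactor, had 0.815, 0.951 and 0.90 FPKM in MCA205 and 7.53, 7.41 and 10.3 FPKM in TC1. Foxl1, a factor of gut mesenchyme, had 0.836, 0.748 and 0.666 FPKM in MCA205 and 6.11, 6.35 and 7.91 FPKM in TC1. All 3 were called higher. Tbx15, a factor of limb and skull mesenchyme, was lower in TC1, at 4.43, 4.53 and 4.76 FPKM against 10.1, 9.41 and 9.12 FPKM.

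Measured against markers of cell type, both lines expressed mesenchymal genes at high levels. Vim, the intermediate filament of mesenchyme, had 448, 431 and 447 FPKM in MCA205 and 1072, 1343 and 1143 FPKM in TC1 (log2 1.42 ± 0.10, adjusted p = 0.00017, edgeR). Prrx1, a factor of limb mesenchyme, had 18.5, 16.4 and 16.5 FPKM in MCA205 and 57.2, 46.4 and 53.8 FPKM in TC1. Zeb2, a repressor of epithelial genes, had 9.47, 8.96 and 8.64 FPKM in MCA205 and 14, 15.6 and 16.1 FPKM in TC1. Both were called higher in TC1. Of 26 mesenchymal transcription factors tested, 12 were called higher and 8 lower, with a median log2 difference of 0.63 against 0.05 over all genes. In the sgNAT10 libraries the balance was opposite, 8 of 25 higher and 12 lower, with a median of -0.61. Foxf1 (34.6, 32.6 and 34.6 FPKM in MCA205 and 13, 11 and 10.7 FPKM in TC1), Ebf1 (5.1, 5.0 and 5.15 FPKM in MCA205 and 1.24, 0.75 and 0.899 FPKM in TC1) and Ebf3 (7.55, 6.97 and 7.39 FPKM in MCA205 and 2.47, 1.94 and 2.29 FPKM in TC1) were lower in TC1. Of 28 mesenchymal surface and cytoskeletal genes, 12 were called higher and 6 lower, which became 7 and 6 of 27 without TC1 library 1 and 5 higher and 12 lower of 27 in the sgNAT10 libraries. Cd44, the hyaluronan receptor, was higher at 137, 145 and 156 FPKM against 69.3, 63.6 and 63, and Pdgfra at 19.2, 17.1 and 17.6 FPKM against 3.73, 3.88 and 3.52. Cald1 and Tpm1, actin-binding proteins, were lower in TC1, Cald1 at 79, 55.3 and 60.7 FPKM against 171, 166 and 157 FPKM.

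Lung and epithelial markers did not set TC1 apart as a lung line. Nkx2-1, the defining factor of lung epithelium, had 0, 0.0451 and 0 FPKM in TC1, and the surfactant gene Sftpc was at 0 in all 3 TC1 libraries. Of 15 lung epithelial genes tested, 3 were called higher in TC1 and 3 lower, near the 23.5% and 22% of all genes. Aqp5, a water channel of type I pneumocytes, was lower at 0.983, 0.992 and 0.797 FPKM against 2.5, 2.47 and 2.2, and Pdpn, which lung epithelium shares with fibroblasts, was higher at 95.4, 57.5 and 73.4 FPKM against 42.3, 40.8 and 40.02. Slc34a2, a phosphate transporter, had 1.51, 2.45 and 0.375 FPKM in TC1 and followed the order of the liver and intestine transcripts over the TC1 libraries. Of 49 epithelial adhesion and keratin genes, 6 were called higher and 4 lower. Without TC1 library 1 the counts were 3 and 4, and with MCA205 library 1 alone against TC1 libraries 2 and 3 they were 16 and 3 of 48, with a median log2 difference of 4.34 against 0.63 over all libraries. The counts depended on which libraries entered the fit, and these libraries also differed in liver and intestine transcripts. Of 18 epithelial transcription and splicing factors 1 was called higher and 2 lower. Epcam, an epithelial adhesion molecule, had 0.303, 15.7 and 7.03 FPKM in MCA205 and 21.8, 29.4 and 6.12 FPKM in TC1, and it too was lowest in MCA205 library 1 and highest in TC1 library 2. Krt80 was lower in TC1 (6.5, 4.19 and 4.3 FPKM against 21.6, 22 and 19.3). Foxa1, a pioneer factor of endoderm, had 3.35, 3.26 and 3.58 FPKM in MCA205 and 0.506, 0.404 and 0.0561 FPKM in TC1. Grhl2, which maintains epithelial identity, had 0.80, 1.0 and 1.13 FPKM in MCA205 and 0.339, 0.225 and 0.159 FPKM in TC1. Both were called lower in TC1. Msln, a surface protein of mesothelium, was also lower, at 39.5, 33.2 and 30.5 FPKM against 232, 212 and 195.

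More matrix genes were called higher in TC1 than lower between wild-type libraries, but not between sgNAT10 libraries. Of 68 collagens and matrix glycoproteins tested, 30 were called higher and 14 lower, with a median log2 difference of 0.32, and in the sgNAT10 libraries 17 of 66 were higher and 21 lower, with a median of -0.22. Basement membrane genes led. Col4a1 had 32, 32.3 and 32.7 FPKM in MCA205 and 114, 133 and 127 FPKM in TC1. Col4a2 had 31.5, 31.6 and 32.7 FPKM in MCA205 and 78.5, 91.3 and 88.7 FPKM in TC1. The laminin chain gene Lamb1 had 30.2, 26.8 and 25.9 FPKM in MCA205 and 117, 125 and 134 FPKM in TC1. Fbln5, which organises elastic fibres, was at 1.46, 1.39 and 0.932 FPKM in MCA205 and 7.48, 6.37 and 4.52 FPKM in TC1. Among 20 integrin genes 7 were called higher and 4 lower, against 23.5% and 22% of all genes. Itgb1, the common beta subunit, was higher at 195, 221 and 229 FPKM against 123, 115 and 109.6, as was the laminin-binding Itga7 at 9.65, 9.04 and 8.9 FPKM against 2.51, 2.8 and 2.3. Itgb5 was lower at 25.5, 23.1 and 21.9 FPKM against 33.2, 33.2 and 31.9. Proteases and their inhibitors were split, 11 higher and 10 lower of 37, with 7 and 13 without TC1 library 1 and 10 and 16 of 35 in the sgNAT10 libraries. Timp1, an inhibitor of metalloproteinases, was higher in TC1 at 97.5, 99.9 and 103 FPKM against 30.7, 31 and 33.8, and Mmp2 and Mmp14 were lower, Mmp2 at 15.4, 14.4 and 15 FPKM against 30.3, 30.04 and 29.2. Htra1, a secreted serine protease, was among the most abundant losses, with 175, 174 and 162 FPKM in MCA205 and 30.8, 17.9 and 18.2 FPKM in TC1.

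Genes that report RAS and ERK signalling were mostly higher in TC1. Of 34 tested, 26 were called higher and 3 lower, with a median log2 difference of 0.91. Without TC1 library 1 the counts were 24 and 5, and among sgNAT10 libraries the same contrast gave 21 and 3. Areg, a ligand of the EGF receptor, had 0.736, 1.03 and 0.599 FPKM in MCA205 and 22.3, 19.6 and 23.2 FPKM in TC1 (log2 4.75 ± 0.22, adjusted p = 6.5e-05, edgeR). Fosl1, an AP-1 subunit, had 64.7, 62.5 and 57.9 FPKM in MCA205 and 186, 157 and 165 FPKM in TC1. The feedback inhibitors Dusp5 (9.92, 9.2 and 8.91 FPKM in MCA205 and 32.7, 33.3 and 37.3 FPKM in TC1) and Spry2 (5.27, 5.99 and 5.51 FPKM in MCA205 and 14.9, 17.3 and 14.9 FPKM in TC1) were higher as well, and so was Hbegf, another EGF receptor ligand (13.7, 12.6 and 12 FPKM in MCA205 and 24.9, 24.4 and 24.1 FPKM in TC1). The 3 called lower, named after their values were seen, were Dusp4 (log2 -0.57), Emp1 (-0.75) and Plaur (-0.32). Hras, also chosen after its values were seen, was slightly lower although its groups overlapped, at 21.4 ± 2.48 FPKM in MCA205 and 18.1 ± 2.03 in TC1 (SD, n = 3 each). Papillomavirus genes and transgenes were not analysed here.

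More p53 targets were called higher in TC1 than lower. Of 30 tested, 18 were called higher and 5 lower and 7 did not pass, with a median log2 difference of 0.63, and the sgNAT10 libraries gave 22 and 4. Cdkn1a, which encodes the kinase inhibitor p21, had 12.7, 15.8 and 15.2 FPKM in MCA205 and 101, 109.9 and 120.4 FPKM in TC1 (log2 2.89 ± 0.11, adjusted p = 4.8e-05, edgeR). Mdm2, the ubiquitin ligase of p53, had 18.4, 16.3 and 17.6 FPKM in MCA205 and 32.4, 33.5 and 35 FPKM in TC1. Eda2r, a receptor of the tumour necrosis factor family, had 1.95, 2.03 and 2.4 FPKM in MCA205 and 8.85, 9.57 and 10.5 FPKM in TC1. Zmat3, an RNA-binding protein, had 5.5, 5.34 and 5.51 FPKM in MCA205 and 17.6, 20.1 and 20.6 FPKM in TC1. Cdkn2a, which encodes p16 and p19Arf, had 97.5, 93.8 and 96.6 FPKM in MCA205 and 322, 349.5 and 375 FPKM in TC1. Its neighbour Cdkn2b had 8.95, 9.995 and 9.34 FPKM in MCA205 and 35, 41.5 and 37.9 FPKM in TC1. Trp53 itself did not pass the test, at 100.04 ± 3.92 FPKM in MCA205 and 92 ± 9.68 in TC1 (SD, n = 3 each). Over 45 oncogenes and tumour suppressors 17 were called higher and 18 lower, and in the sgNAT10 libraries 18 and 11 of 43. Igf2bp2, a growth-related RNA-binding protein, was higher in TC1 (35.7, 33.4 and 44 FPKM against 17.8, 19.7 and 18.1), the opposite of its relative Igf2bp3.

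Growth factors and their receptors differed one by one. Of 52 growth factor genes 20 were called higher in TC1 and 6 lower, and of 39 receptor tyrosine kinases 14 and 6. The sgNAT10 libraries gave 19 and 23 of 50 growth factor genes and 9 and 11 of 37 receptor genes. Pgf, a ligand of the VEGF receptor family, had 0.333, 0.241 and 0.374 FPKM in MCA205 and 23.8, 15 and 20.9 FPKM in TC1. Kitl, the ligand of KIT, had 3.54, 3.87 and 2.98 FPKM in MCA205 and 15.5, 17.2 and 17.6 FPKM in TC1. Among receptors Fgfr1 (14.4, 14.6 and 15 FPKM in MCA205 and 34.8, 27.3 and 31.8 FPKM in TC1), Erbb2 (5.67, 5.9 and 5.57 FPKM in MCA205 and 9.19, 10.2 and 9.65 FPKM in TC1) and Igf1r (5.0, 5.15 and 5.01 FPKM in MCA205 and 7.62, 8.7 and 8.96 FPKM in TC1) were higher in TC1. Ptk7, a pseudokinase of WNT signalling, was lower, at 10.9, 7.85 and 8.07 FPKM against 28.2, 27.5 and 28.3. In the WNT, NOTCH, hedgehog and YAP list 13 of 47 were called higher and 10 lower, near the 23.5% and 22% of all genes. Lgr6, an R-spondin receptor, was lower in TC1 at 0.285, 0.12 and 0.139 FPKM against 6.2, 5.92 and 5.72, and Tcf7, a nuclear effector of WNT, was higher at 11, 10.2 and 9.45 FPKM against 1.73, 1.65 and 1.59. Retinoid genes were split, 5 higher and 5 lower of 16, against 23.5% and 22% of all genes. Stra6, the receptor that takes up retinol, was lower (0.604, 0.218 and 0.208 FPKM against 9.74, 8.81 and 9.64), whereas Crabp1, a retinoic acid-binding protein, was one of the most abundant gains, with 70.9, 68.4 and 65.4 FPKM in MCA205 and 484, 578 and 571 FPKM in TC1.

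The largest losses in antigen presentation were the 2 classical heavy chains. Of 26 MHC class I pathway genes 8 were called higher in TC1 and 6 lower, with a median log2 difference of 0.10. Without TC1 library 1 the counts were 8 and 10, and in the sgNAT10 libraries 7 and 13. Against the near loss of H2-K1 and H2-D1, the light chain gene B2m was higher in TC1 at 2100.3, 1710.3 and 1811 FPKM against 1009, 1051 and 1032 FPKM. Nlrc5, the transcriptional activator of class I genes, was higher at 16, 16.2 and 16.6 FPKM against 6.88, 7.03 and 6.54, and so were the immunoproteasome subunit genes Psmb8 (15, 21.6 and 14.2 FPKM against 2.51, 5.29 and 3.27) and Psmb9 (12.1, 10.7 and 9.2 FPKM against 3.8, 4.3 and 4.17). H2-M3 and H2-Q4 were lower, H2-M3 at 8.02, 6.3 and 7.07 FPKM against 16.7, 15.5 and 16.2. H2-Q7, chosen after its values were seen, went the other way, from 0.059, 0.991 and 0.361 FPKM in MCA205 to 22.3, 20.5 and 23.3 FPKM in TC1. Class I heavy chain genes resemble one another closely, so reads may be shared among them. Of 26 checkpoint and natural killer ligand genes 11 were called higher and 3 lower. Ligands of NKG2D, an activating receptor of natural killer cells, differed in both directions: Raet1e had 3.29, 3.23 and 3.31 FPKM in MCA205 and 20.3, 20.8 and 21.4 FPKM in TC1. Ulbp1 had 15.7, 13.8 and 14 FPKM in MCA205 and 4.22, 2.05 and 1.78 FPKM in TC1. Cd80, a ligand of CD28 and CTLA-4, was at 0.062, 0.224 and 0.0259 FPKM in MCA205 and 3.3, 4.11 and 4.41 FPKM in TC1. Vcam1, an adhesion molecule for leukocytes, was lower in TC1 at 18, 7.38 and 6.55 FPKM against 61, 56.7 and 54.5.

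Interferon-stimulated genes depended on 1 library. Of 53 tested, 5 were called higher in TC1 and 6 lower, with a median log2 difference of -0.05. Without TC1 library 1, 37 were called lower and 5 higher, with a median of -1.06. The sgNAT10 libraries, which do not include that library, gave 14 lower and 6 higher of 53, with a median of -0.36. With MCA205 library 1 alone against TC1 libraries 2 and 3 the counts were 24 and 3. Isg15, a ubiquitin-like modifier, is an example, with 35.6, 29.8 and 31.7 FPKM in MCA205 and 59.1, 11.4 and 14.1 FPKM in TC1. Cxcl10, an interferon-induced chemokine, had 72.2, 61.5 and 62.3 FPKM in MCA205 and 187, 12.3 and 21.2 FPKM in TC1 (both chosen after their values were seen). TC1 library 1 was the highest of the 6 for both, and TC1 libraries 2 and 3 were below all MCA205 libraries. Genes called lower with all libraries in the fit included Eif2ak2, the RNA-activated kinase PKR (11.4, 7.57 and 8.99 FPKM against 20.7, 17.7 and 16.8), and Ifit2 (9.44, 7.98 and 8.54 FPKM against 13, 12.4 and 11.3). Of 33 genes that sense nucleic acids and microbial patterns 7 were lower and 3 higher, and without TC1 library 1 these were 15 and 3. The sgNAT10 libraries gave 11 lower and 6 higher of these 33. Aim2, a cytosolic DNA sensor, had 24.4, 20.2 and 21.2 FPKM in MCA205 and 7.01, 4.47 and 2.42 FPKM in TC1. Gsdmd, the pore former of pyroptosis, had 46.9, 48.4 and 49.5 FPKM in MCA205 and 24.5, 14.7 and 12.5 FPKM in TC1. Of 46 cytokine and chemokine genes 9 were higher and 3 lower, and without TC1 library 1 these were 7 and 12. In the sgNAT10 libraries 6 were higher and 20 lower of 45. Il34, a ligand of the CSF1 receptor, was higher in TC1 at 26.2, 23.8 and 26.5 FPKM against 6.0, 6.66 and 6.59, and the chemokine gene Cx3cl1 was lower at 2.78, 3.75 and 1.96 FPKM against 21.7, 19.7 and 21.8.

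Cell division genes were lower in TC1 almost as a block. Of 27 G2/M and mitosis genes 26 were called lower, against 22% of all genes, with a median log2 difference of -0.77, and the count was 26 in each of the fits without TC1 library 1, without MCA205 library 2, and with MCA205 library 1 alone against TC1 libraries 2 and 3. Plk1, the polo-like kinase, had 87.3, 85.3 and 85.1 FPKM in MCA205 and 41.5, 43.5 and 45.4 FPKM in TC1 (log2 -1.01 ± 0.05, adjusted p = 6.6e-05, edgeR). Kif20a, a kinesin of cytokinesis, had 71, 63.8 and 64.6 FPKM in MCA205 and 33.1, 32.7 and 33.5 FPKM in TC1. Mad2l1, of the spindle checkpoint, had 65.2, 54.9 and 52.7 FPKM in MCA205 and 23.8, 23.7 and 25.7 FPKM in TC1. Of 32 genes of G1/S and DNA replication 20 were lower and 3 higher, among them Rrm2, a subunit of ribonucleotide reductase (143, 135 and 131 FPKM in MCA205 and 50.9, 53.7 and 58.6 FPKM in TC1), and the replicative helicase genes Mcm5 (137, 124 and 126 FPKM in MCA205 and 61.5, 67.7 and 67.2 FPKM in TC1) and Mcm2. Between the sgNAT10 libraries the G2/M genes were 9 lower and 3 higher of 27, with a median of -0.04, and the G1/S genes 10 lower and 11 higher of 32. The share of dividing cells at harvest was not analysed here.

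**Figure D5:**
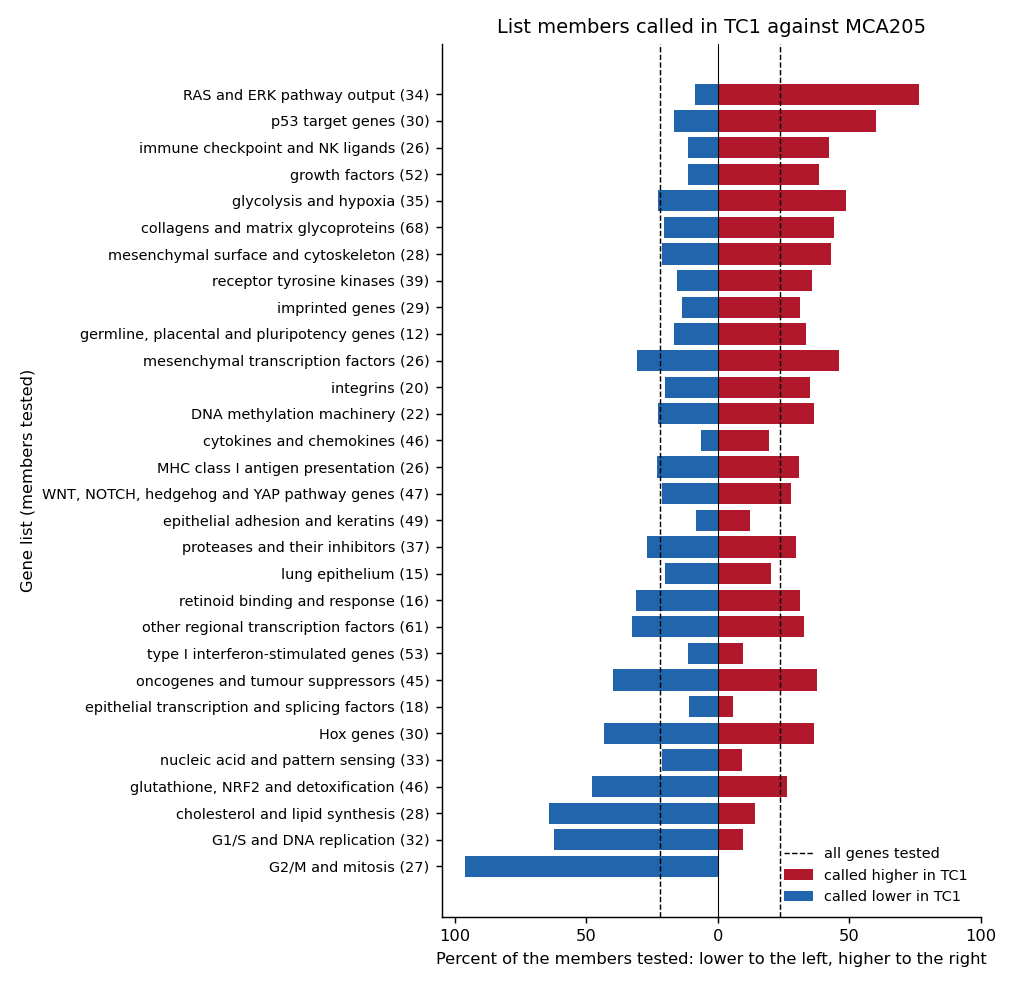
Percent of the tested members of each gene list called higher (red, to the right) or lower (blue, to the left) in TC1 against MCA205, with the number tested in brackets and dashed lines at 23.5% and 22%, the shares over all genes. RAS and ERK output and p53 targets extend to the right, and G2/M, G1/S and cholesterol synthesis to the left.

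Metabolic lists differed in direction. Of 28 cholesterol and lipid synthesis genes 18 were lower in TC1 and 4 higher, with a median log2 difference of -0.45, and the sgNAT10 libraries gave 17 and 6. Mvd, of the mevalonate pathway, had 109, 105 and 102 FPKM in MCA205 and 38.6, 41.9 and 44 FPKM in TC1. Sqle, squalene epoxidase, had 162, 149 and 152 FPKM in MCA205 and 68.6, 70.5 and 73.6 FPKM in TC1. Of 46 genes for glutathione, NRF2 response and detoxification 22 were lower and 12 higher, with a median of -0.16, and the sgNAT10 libraries had the opposite balance, 15 lower and 23 higher with a median of 0.59. The NRF2 targets Nqo1 (71.8, 69.6 and 82.4 FPKM in MCA205 and 25.2, 26 and 25.5 FPKM in TC1) and Gclm (35.6, 33 and 33.3 FPKM in MCA205 and 16.7, 17.5 and 15.9 FPKM in TC1) were lower, while Nfe2l2, which encodes NRF2, was higher at 75.3, 69.9 and 73.8 FPKM against 53.1, 53.8 and 51.4. Of 35 glycolysis and hypoxia genes 17 were higher and 8 lower. Slc2a3, a glucose transporter, had 0.147, 0.125 and 0.147 FPKM in MCA205 and 8.52, 8.24 and 8.01 FPKM in TC1 (log2 5.39 ± 0.16, adjusted p = 3.3e-05, edgeR). Car9, a carbonic anhydrase that hypoxia induces, had 9.01, 10.5 and 11.6 FPKM in MCA205 and 89.9, 99.1 and 78 FPKM in TC1. Slc2a1 had 40.4, 39 and 40.1 FPKM in MCA205 and 95.2, 88.7 and 86.8 FPKM in TC1. Slc16a3, a lactate exporter, was lower in TC1 at 52.4, 43 and 47.9 FPKM against 95.6, 85.1 and 79.7.

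Imprinted genes held some of the largest contrasts. Of 29 tested 9 were called higher in TC1 and 4 lower, and 8 of the 9 passed 4-fold, against 6.35% of all genes. Beside Dlk1, Grb10, an adaptor that restrains growth factor receptors, had 0, 0.17 and 0.111 FPKM in MCA205 and 59.2, 66.5 and 69.4 FPKM in TC1. Peg10, a gene of retrotransposon origin that the placenta needs, had 0, 0.0355 and 0.0102 FPKM in MCA205 and 6.57, 7.71 and 8.37 FPKM in TC1. Sgce, which shares its promoter region with Peg10, had 0.0415, 0.351 and 0.0922 FPKM in MCA205 and 18.2, 19.2 and 19.99 FPKM in TC1. Zrsr1, a splicing factor gene, had 0.0838, 0.283 and 0.174 FPKM in MCA205 and 3.51, 3.88 and 3.64 FPKM in TC1. The listed germline, placental and pluripotency genes were mostly too low to test, 12 of 25 in the tables passing the filter, with 4 higher and 2 lower, against 1 and 5 of 10 in the sgNAT10 libraries. Rhox5, an X-linked homeobox gene of placenta and testis, had 9.31, 10.6 and 9.71 FPKM in MCA205 and 166, 183 and 188 FPKM in TC1 (log2 4.09 ± 0.09, adjusted p = 1.4e-05, edgeR), and Xlr3a had 0.077, 0.0436 and 0.018 FPKM in MCA205 and 5.58, 4.57 and 5.34 FPKM in TC1. Between sgNAT10 lines the log2 difference was only 0.69 for Rhox5 and 0.24 for Xlr3a. The difference of the 2 contrasts was -3.37 for Rhox5 (adjusted p = 2.9e-08, edgeR) and -5.76 for Xlr3a (adjusted p = 0.00033, edgeR). Sox2, a factor of stem cells, was lower at 7.3, 9.99 and 9.31 FPKM against 18.8, 18.9 and 18.1. In the list of DNA methylation machinery 8 of 22 were higher and 5 lower, against 23.5% and 22% of all genes. Dnmt3l, a cofactor of new methylation, was at 1.5, 1.91 and 1.94 FPKM in MCA205 and 5.46, 4.36 and 5.05 FPKM in TC1. Uhrf1, which recruits the maintenance methylase, had 97.3, 92 and 89.1 FPKM in MCA205 and 58.5, 59.9 and 64.7 FPKM in TC1.

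The X and Y chromosomes and the genes of the title of the study come next. Xist had 18.8, 17.9 and 17 FPKM in MCA205 and 2.23, 0.0886 and 0.00448 FPKM in TC1, with the TC1 signal almost wholly in library 1, and its adjusted p was 0.052 (edgeR). The Y-linked gene Eif2s3y had 0, 0.715 and 0.361 FPKM in MCA205 and 1.28, 1.75 and 0.575 FPKM in TC1 (adjusted p = 0.35, edgeR), and Ddx3y had 0, 0.0981 and 0.048 FPKM in MCA205 and 0.46, 0.82 and 0.293 FPKM in TC1 (adjusted p = 0.065, edgeR). Both were lowest in MCA205 library 1 and highest in TC1 library 2, as the liver and intestine transcripts were. Kdm5d had 0.0976, 0.214 and 0.102 FPKM in TC1 (adjusted p = 0.44, edgeR). Uty had 0.138, 0.124 and 0.119 FPKM in TC1 (adjusted p = 0.37, edgeR). Nat10 overlapped between the lines, at 14.2, 12.5 and 13.8 FPKM in MCA205 and 13.9, 14.1 and 15.9 FPKM in TC1, a log2 difference of 0.07 ± 0.08 (adjusted p = 0.49, edgeR). In sgNAT10 cells Nat10 had 13.2, 13.6 and 13.6 FPKM in MCA205 and 14.2, 12.4 and 11.7 FPKM in TC1, which overlap the wild-type levels, so the level of this transcript does not check the sgNAT10 label. Cdk2 overlapped between lines (74.2, 56 and 63.6 FPKM in MCA205 and 57.2, 79.9 and 78 FPKM in TC1). Myc was higher in TC1 at 243, 209 and 235 FPKM against 84, 87.4 and 100.5 (log2 1.33 ± 0.11, adjusted p = 0.00026, edgeR), and Dnmt1 was lower at 93.7, 91 and 88.1 FPKM against 116, 122 and 104 (log2 -0.36 ± 0.06, adjusted p = 0.0032, edgeR).

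Some differences came in runs of neighbouring genes. By chromosome the median log2 difference ran from -0.25 on chromosomes 15 and 6 to 0.28 on chromosome 11, and between sgNAT10 libraries chromosome 11 had a median of -0.03. Over 18281 windows of 25 neighbouring tested genes the middle 95% of the medians lay between -0.48 and 0.67. The largest were the Mup cluster on chromosome 4 (median 6.54), the Defa cluster on chromosome 8 (5.37), the Serpina cluster on chromosome 12 (4.75) and the Igk and Igh variable gene clusters on chromosomes 6 and 12 (3.74 and 3.52). These are clusters of liver, Paneth cell and B cell genes, cell types that no label of these libraries names. Of the 25 genes in each window, 22 were called higher in the Mup window, 13 in Defa, 19 in Serpina, 10 in Igk and 9 in Igh. The sixth window, on the X chromosome from Gm15128 to Wnk3, had a median of 3.26 in wild-type and -4.20 in sgNAT10 libraries, and it holds the testis-expressed Ott, Luzp4 and a run of unnamed gene models, and 15 of its 25 genes were called higher between wild-type lines. These genes were low, with Ott at 0.0949 ± 0.0151 FPKM in MCA205 and 1.01 ± 0.141 in TC1 (SD, n = 3 each), and may share reads, so single values are uncertain. Shorter runs, looked for after the data were seen, stood beside the genes that MCA205 lacked. On chromosome 5 Gal3st4 (chr5:138264921-138272840) had 0 FPKM in MCA205 and 2.66, 1.57 and 2.63 FPKM in TC1, next to Gpc2 and Stag3 (chr5:138280240-138312393). On chromosome 2 Trim44 (chr2:102300119-102407828) had 0.0109, 0.435 and 0.119 FPKM in MCA205 and 33.7, 36.6 and 38.6 FPKM in TC1, and its neighbour Fjx1 had 0.0191, 0.0835 and 0.0415 FPKM in MCA205 and 8.78, 8.15 and 9.14 FPKM in TC1, while Ldlrad3 before them and Cd44 after them were expressed in both lines. On chromosome 6 Casd1, Sgce, Peg10, Ppp1r9a and Pon1, which follow one another among genes of at least 1 FPKM, were all called higher in TC1, with log2 differences from 4.29 to 8.80. Pon1, which liver expresses strongly, had 3.79, 8.67 and 2.3 FPKM in the TC1 libraries, highest in library 2 and lowest in library 3 as the liver transcripts were, whereas the other 4 varied less. The part of liver transcript in the Pon1 value was not tested. Coordinates are those of the annotation on GRCm38 (mm10), the build of the files.

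A few genes were expressed in both lines through different transcripts. Among 3338 genes of at least 20 FPKM in every library, 26 had 1 most abundant transcript in all MCA205 libraries and another in all TC1 libraries. The shares rest on how the authors divided counts among overlapping transcripts, and no test was made. Lpcat3, an enzyme that remodels phospholipids, had 60.8% ± 3.72 of its counts in a retained-intron transcript in MCA205 and 0.428% ± 0.651 in TC1, whose protein-coding transcript took 97.3% ± 1.96 (SD, n = 3 each). For Hmgn2, a nucleosome-binding protein, the retained-intron transcript held 8.98% ± 0.871 in MCA205 and 66.6% ± 5.77 in TC1. Rbpj, the DNA-binding effector of NOTCH, used 1 of its protein-coding transcripts for 41.3% ± 1.29 of counts in MCA205 and 90.3% ± 4.43 in TC1. Gyg, which primes glycogen synthesis, had a transcript with 24.1% ± 6.89 of counts in MCA205 and 65.6% ± 9.02 in TC1, but the pooled sgNAT10 libraries had the reverse order, 70.9% in MCA205 and 36.9% in TC1. The protein-coding transcript of Lpcat3 held 37.4% ± 3.81 in wild-type MCA205. In the pooled sgNAT10 libraries this protein-coding transcript held 66.9% in MCA205 and 76.7% in TC1, a smaller gap. The gap was also smaller there for the retained-intron transcript of Hmgn2, 18.9% in MCA205 and 22.9% in TC1. The Rbpj transcript held 36.1% and 69.4% there.

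Promoter windows were described for the genes on in one line and off in the other. Windows whose start site lies within 1000 bases of the annotated 5′ end were found for 16 of the 21 named genes on in TC1, for 8 of the 15 on in MCA205 when TC1 library 1 was set aside, and for 15166 genes in all. The median CG ratio was 0.846 for genes on in TC1 and 0.771 for those on in MCA205, against 0.658 over all windows, and the range within each set, from 0.065 to 1.08 and from 0.241 to 1.18, was wide. A ratio of 0.6 or more was found in 11 of 16, 6 of 8 and 55.3% of windows. The motif TATAAA, searched on both strands as were the others, was in 2 of 16, 2 of 8 and 10.2% of all windows. CACGTG was in 4 of 16 windows of genes on in TC1 and in 8.85% of all windows, and TGANTCA was in 1 of 16 and in 6.49%. Neither was in any of the 8 windows of genes on in MCA205. A match of letters is a description of the window, and methylation was not measured in these files.

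The same contrast between lines was then read in the sgNAT10 libraries, which share their tables with the wild-type libraries but no sample. There 5241 of 18838 genes were called higher in TC1 (27.8%) and 5424 lower (28.8%). Of 8353 genes called between wild-type lines and tested in both, 4515 (54.1%) were called in the same direction and 1378 (16.5%) in the opposite one. Among the 1471 that passed 4-fold between wild-type lines the shares were 78.6% and 7.55%. Of 30 lists with at least 10 genes tested, 14 had more members called on the same side in both contrasts, 12 on opposite sides, and 4 as many higher as lower in one or both. The difference of the 2 contrasts, tested as an interaction over the 12 cell libraries after the data were seen, passed an adjusted p under 0.05 for 7247 genes, 35.3% of those tested (edgeR). Some large contrasts were close in both, such as Rps21 (log2 -8.64 between wild-type and -7.88 between sgNAT10 lines), H2-K1 (-7.46 and -8.38) and Grb10 (9.38 and 10.09). Others were lost or much smaller. Tex13b fell from at least 8.27 FPKM in wild-type TC1 libraries to 0.137, 0.12 and 0.0408 FPKM in sgNAT10 TC1 libraries, and Barx1, a homeobox gene, had 7.53, 7.7 and 8.66 FPKM in wild-type and 0, 0.0653 and 0.0622 FPKM in sgNAT10 TC1 libraries. Mgp went from -4.63 to 0.33, and Gpc6, a glypican, from -5.09 to -1.48. Hoxb9 was reversed: sgNAT10 TC1 cells had 0.68, 0.717 and 0.648 FPKM and sgNAT10 MCA205 cells 7.53, 8.02 and 8.96 FPKM, the reverse of the wild-type order. Crabp1 was also reversed, at 3.48, 2.55 and 1.88 FPKM in sgNAT10 TC1 cells and 105, 105 and 97.1 FPKM in sgNAT10 MCA205 cells.

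In the wild-type tumours labelled TC1 the genes that best separated the cultured lines were on the MCA205 side. Dlk1 had 0.985, 0.838 and 1.13 FPKM and Stag3 0, 0 and 0.107 FPKM, where TC1 cells had at least 258 and 62.8 FPKM. Rps21 had 1029, 348 and 346 FPKM, H2-K1 1955, 1709.9 and 2738 FPKM and Hoxc10 25.7, 20.9 and 22.9 FPKM. Xist had 17.9, 23.1 and 25 FPKM. Macrophage and monocyte genes, a sign of host cells, summed to 1517, 1424 and 2006 FPKM in these tumours, against 63.5 to 70.6 FPKM in TC1 cells. The part of host cells in these levels was not tested.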

How the data were processed

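Per the labels, total RNA of cultured cells and tumours was sequenced in 18 Illumina libraries, 3 for each of 6 groups. The build mm10 and the tools featureCounts, Bowtie2, Trim Galore and FastQC stand in the submitters' processing notes, without roles or versions. Each deposited table lists transcripts with FPKM, which the authors scaled for length and depth, and with estimated counts, which the authors deposited as whole numbers, so that rounding changed none. Strand use in counting is not stated, so overlapping and antisense genes cannot be told apart.

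Here, values were summed per gene identifier over the MCA205 table (30365 genes) and the TC1 cell table (30386 genes), joined with absent genes at 0, and counts were normalised together by TMM. Whether the authors scaled the tables separately is not stated. Total estimated counts ran from 51661298 to 60980565 per library. Replicates differed by more than sampling noise (chi-square per gene 17.6 to 46.0), so none was merged. TC1 was tested against MCA205 with edgeR 4.0.16 quasi-likelihood tests over 18829 genes that passed the default filter, and calls needed an adjusted p (Benjamini-Hochberg) under 0.05. The SE is the log2 difference divided by the square root of F. On simulated data for this comparison, over 18346 genes, 53% of 2-fold and 68% of 4-fold changes were recovered. Intervals and floors cover counting error only.

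The members, the 41 lists and the rules were chosen with earlier results of these data known. Named genes are the 15 largest differences each way among genes of at least 5 FPKM, the 5 smallest p of each list, all Hox, Y-linked and title genes, the on and off genes, the 10 largest FPKM differences each way past 4-fold, transcript switches and windows. Other genes were chosen after their values were seen. Some members of these sets are not reported here. Alternatives covered scaling, filters, tools, transcript class, a replicate block and each library.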

Additional observations from a re-analysis of the deposited data

Results flagged for a closer look

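For 21 of the named genes reported the contrast between lines passed the test in one direction between wild-type cells and in the other between sgNAT10 cells, and the difference of the 2 contrasts passed as well (edgeR, adjusted p at most 0.00029 over all genes tested). The test was chosen after the data were seen. In each sentence below the difference is the sgNAT10 log2 contrast minus the wild-type one. Among transcription factors it was -7.60 for Hoxb9, -4.38 for Foxl1, -1.97 for Prrx1 and -1.16 for Hoxa7. Among growth factors, receptors and secreted factors it was -5.51 for Il34, -4.22 for Serpinf1, -3.65 for Kitl, -3.06 for Pdgfra and -1.96 for Fgfr1. Crabp1, a retinoic acid-binding protein, had the greatest size of the 21, -8.27. For matrix, adhesion and surface genes it was -5.75 for Fbln5, -1.74 for Col4a2, -1.34 for Pdpn, 1.44 for Pkp2 and 1.58 for Itgb5. Car9, a carbonic anhydrase, had -4.58, and Gsr, glutathione reductase, 0.77. In the antigen presentation list it was -2.83 for Psmb9 and -1.77 for Nlrc5, and in the DNA methylation list -3.54 for Dnmt3l and 0.94 for Dnmt1.

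Tumours do not enter the comparison, yet their libraries carried a signal of it. The 8 genes of MCA205 cells stood at medians of 95.1%, 95.7% and 87.4% of the MCA205 level in the 3 wild-type tumours labelled TC1, against 0.0125% to 11.2% in the cultured TC1 cells.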

How the results depend on the processing

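Both counts of called genes, 4425 higher and 4140 lower, moved by less than 1.5 times under other size factors, filters, table joins, transcript classes, DESeq2, limma and a fit over 12 cell libraries. A 2-fold minimum in the test, a stricter question, gave 896 and 354, of which 725 and 237 passed 4-fold. With MCA205 library 1 alone, assumed to vary like the TC1 libraries, the genes lower were 2526 against 3 TC1 libraries and 2443 against TC1 libraries 2 and 3, and the first of these fits gave 2142 and 252 past 4-fold. The 1195 and 469 genes past 4-fold became 408 and 134 with limma on log2(FPKM + 1) and 770 and 303 with a pseudocount of 0.1, over 13410 genes of at least 1 FPKM in 3 libraries, so the test, scaling and filter changed together with the pseudocount. Protein-coding transcripts alone, with fewer genes tested, gave 296 lower past 4-fold. Leaving out 1 library at a time, the ranges were 3490 to 4458 higher, 3484 to 4202 lower, 885 to 1808 at least 4-fold higher and 362 to 650 at least 4-fold lower, with 1808 without MCA205 library 2, for which the cause was not tested. For sgNAT10 cells the ranges were 4532 to 5928 higher and 4492 to 5910 lower. A replicate block gave 3579 and 3409 (932 and 380 past 4-fold), and 4401 and 4728 for sgNAT10 cells. The deviations of same-numbered libraries correlated at -0.137, 0.340 and -0.0476, and 1 of the 3 numbers correlated best with its own, so the numbers do not pair the libraries. Of the 203 named genes called, 14 lost the call without 1 library, and no named gene reversed in any alternative run.

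Depth limits genes of few counts, and the line cannot be told apart from the table. TC1 library 1 carried MCA205 genes unevenly, from 0% to 28.8% of the MCA205 level over the 8 genes. Liver and intestine transcripts also differed among libraries. Low levels in TC1 and genes of those tissues are therefore the least certain values here.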
